A study of Homo sapiens with 7 samples.

Results

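The sites described here gave about equal raw read counts in both DMSO control libraries of a CUT&RUN experiment on the fusion transcription factor PAX3-FOXO1. They were chosen by rule: a summed count of at least 60 over the DMSO libraries A and B, and a ratio of library B to library A of at most 1.2. Over all sites in the table this ratio was 1.68, so the chosen sites did not follow the difference in total between the controls. The rule picked 215 of 5782 sites (3.72%), called level sites below. A further 3603 sites reached a DMSO sum of 60 with a higher ratio and are called the other sites, and 1964 sites had fewer DMSO reads.

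All libraries came from Rh4 cells, an established rhabdomyosarcoma line in which, per the labels, PAX3-FOXO1 carried an FKBP tag. An antibody against HA was used on crosslinked cells. For the controls this was inferred: both DMSO columns need a group of 2 samples, which the labels give with crosslinking and not without it. The table holds no measure of how much fusion protein was left after treatment. The control group received DMSO (2 libraries), and the treated groups received 500 nM dTAG47 for 2 h (2 libraries) or 4 h (2 libraries). The table holds raw counts in sites of 400 bases on build hg19. The labels name no clone and do not say whether libraries came from separate cultures, so p-values here cover the spread from library to library, which may be no more than technical.

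PAX3-FOXO1 fuses the DNA-binding domains of PAX3 with the transactivating end of FOXO1 and drives fusion-positive rhabdomyosarcoma. dTAG compounds link an FKBP-tagged protein to a ubiquitin ligase, so that the protein is degraded. In CUT&RUN a nuclease tied to the antibody releases the DNA beside the bound protein. Some stretches of the genome give reads in libraries of many kinds whatever the antibody, often where a reference build holds fewer copies of a repeat than the cells do, and lists of such stretches are commonly masked. Whether the level sites lie in such lists was not analysed here, because no hg19 annotation or sequence was used.

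Total counts in sites ran from 110440 (2 h library B) to 380057 (DMSO library B), and depth outside the sites is unknown. The 4 h columns had totals of 151360 and 156845. Apart from 1 common ratio, they differed by no more than sampling noise (5777 sites, chi-square 1.01 per degree of freedom, p = 0.316). Over all sites the DMSO pair gave 2.07 per degree of freedom and the 2 h pair 1.93. Over the other sites alone the DMSO pair gave 0.959 (chi-square test, p = 0.959). Those sites were chosen on the ratio of that pair, which narrows its spread, so nothing is read from this value. Whether the 4 h columns came from 1 sample is not shown by this test, but means here treat them as 1. The 4 h columns stayed separate in the fits unless stated otherwise.

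The level sites together held between 22212 and 28407 reads in every library. For all pairs of counts from here on, library A comes first. Summed over the 215 sites, the controls gave 28407 and 26531 reads, the 2 h libraries 26961 and 22212, and the 4 h columns 24668 and 25054. The lowest sum belonged to the 2 h library B, and neither 4 h column reached the lower of the controls. The mean was 27469 ± 1327 (SD, n = 2) with DMSO, 24586.5 ± 3358 (SD, n = 2) at 2 h and 24861 at 4 h (n = 1). Treated counts were thus 89.5% of the DMSO count at 2 h and 90.5% at 4 h. At the other sites these values were 51.6% and 45.6%. A few deep sites weigh heavily in these sums: the median level site had a treated to DMSO ratio of 0.714 at 2 h and 0.625 at 4 h, against 0.503 and 0.446 at the median other site. The DMSO counts entered the choice of sites, so these ratios are descriptions and were not tested.

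The share of each library's reads that fell in the level sites changed from library to library. It was 12.6% and 6.98% in the controls, 11.8% and 20.1% after 2 h, and 16.3% and 15.97% after 4 h. The highest share fell in the library with the smallest total and the lowest in the library with the largest.

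The pair of 2 h libraries played no part in the choice and differed in total in the opposite sense from the DMSO pair, with library B the smaller. Over all sites the 2 h library B held 0.484 times the reads of library A. At the level sites the ratio was 0.824 (95% exact binomial interval 0.809 to 0.839), and at the other sites it was 0.426 (0.423 to 0.43). The intervals cover counting error only and not the spread between cultures. Sites level between the DMSO libraries were therefore closer to level between the 2 h libraries as well. Of the 215 level sites, 101 (47.0%) had a 2 h ratio of at least 0.7, against 219 of the 3603 other sites (6.08%), 13.8% of all sites and 8.38% of those with 60 or more DMSO reads. The limits of 0.7 here and 0.8 below were chosen after the values were seen.

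Level sites were not alike among themselves. With each pair of columns compared by chi-square per degree of freedom, which is near 1 where 1 common ratio and sampling noise describe all sites, the 2 h pair gave 3.19 over the level sites and 1.05 over the other sites. It was 2.31 over the 148 level sites with under 120 DMSO reads and 1.76 over the 44 with 200 or more. The level sites therefore held a mixture of 2 h ratios, whereas the other sites came close to a single one.

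**Figure D1:**
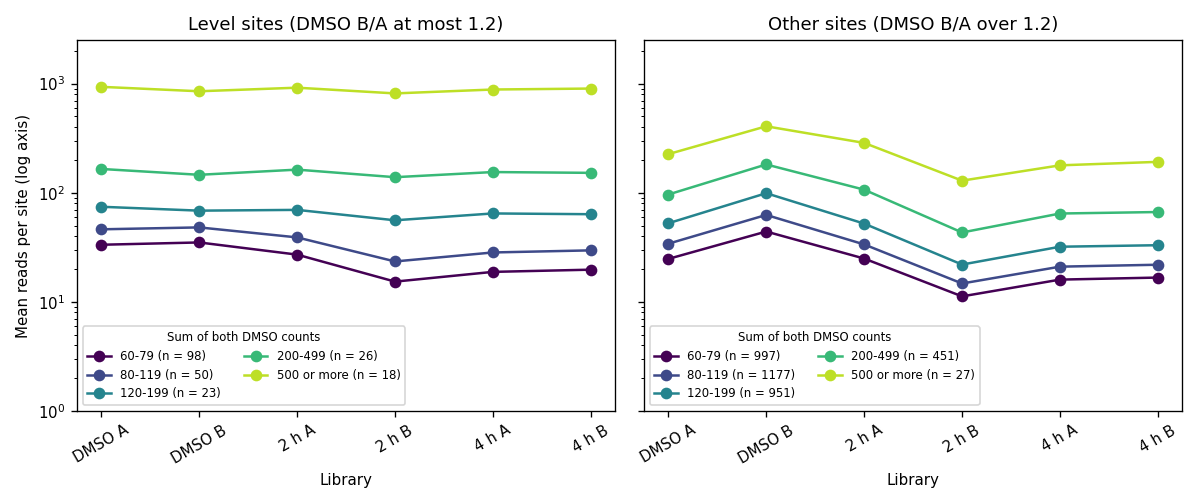
Mean reads per site (log axis) in each of the 6 libraries, for the 215 level sites (left) and the 3603 other sites (right), in 5 classes by the sum of both DMSO counts; points are class means and n is the number of sites. Level sites with 200 or more DMSO reads form nearly flat lines, while those with 60 to under 120 dip at the 2 h library B (15.3 reads per site on average in the lowest class) as the other sites do.

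The DMSO sum divided the level sites. Of the 215, 98 had a sum of 60 to under 80, 50 of 80 to under 120, 23 of 120 to under 200, and 44 of 200 or more. Among all sites of each class the level sites made up 8.95%, 4.07%, 2.36% and 8.43%, and they made up 40.0% of the 45 sites with 500 or more DMSO reads. Their 2 h library B to A ratio was 0.566 in the lowest class, then 0.602, 0.803 and 0.879 in the highest. At the other sites of the same classes it stayed between 0.412 and 0.45.

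The 44 level sites with 200 or more DMSO reads stayed near their control counts at 4 h. They held 21115 and 19116 reads in the controls, 20754 and 18251 after 2 h and 19919 and 20177 after 4 h. The 4 h columns lay between the DMSO libraries, and the 2 h library B lay below both. Per site the 4 h to DMSO ratio ran from 0.828 to 1.18, with a median of 0.99. All 44 reached a ratio of 0.8 at 4 h and 43 reached it at 2 h, against 17 and 29 of the 478 other sites of that depth. Over all sites, 7.33% reached 0.8 at 4 h and 9.18% at 2 h; among those with 60 or more DMSO reads it was 4.27% and 5.55%. The coefficient of variation of unscaled counts over the 4 treated columns, which the rule did not use, had a median of 8.38% at these 44 sites. At the 478 others it was 38.9%. The totals of these columns, from 110440 to 228300, enter this value, so it partly restates the 2 h library B to A ratio.

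The 148 level sites with 60 to under 120 DMSO reads were nearer to the other sites than the deep level sites were, but did not match them. The 98 sites of the lowest class held 3270 and 3433 reads in the controls, 2656 and 1502 after 2 h and 1845 and 1933 after 4 h. Both treated times lay below both DMSO libraries in this sum. The 4 h count was 56.4% of the DMSO count in this class and 61.5% in the next, against 47.5% and 44.4% at the other sites. Of the 98 and 50 sites in these classes, 16 and 14 reached a 4 h to DMSO ratio of 0.8.

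**Figure D2:**
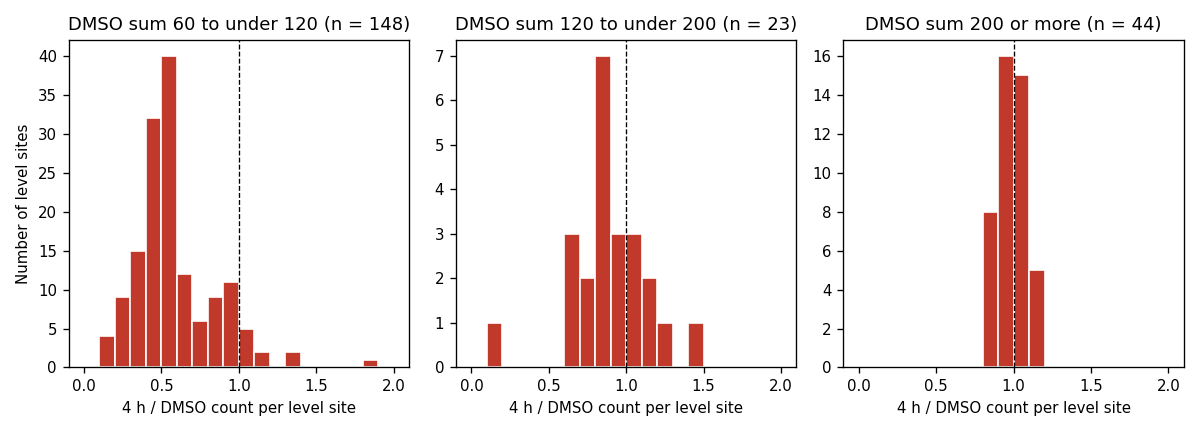
Number of level sites by the ratio of the 4 h to the DMSO count, in bins of 0.1, for DMSO sums of 60 to under 120 (148 sites), 120 to under 200 (23 sites) and 200 or more (44 sites); the dashed line marks a ratio of 1. The sites with the most reads all lie between 0.828 and 1.18, while those with the fewest spread from 0.103 to 1.87.

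The DMSO ratio itself divided the level sites too. Pooled over the 22 sites with a ratio of up to 0.8, the 2 h library B to A ratio was 0.844, and over the 72 sites between 0.8 and 1 it was 0.876. Over the 121 sites between 1 and 1.2 it dropped to 0.62. Past the limit of 1.2 it was 0.459 between 1.2 and 1.4 and lay between 0.418 and 0.433 in every higher band. The 4 h count was 99.2%, 98.3% and 64.5% of the DMSO count in the bands up to 0.8, 0.8 to 1 and 1 to 1.2, and between 44.8% and 46.8% in the bands above. Among sites with 200 or more DMSO reads the band from 1 to 1.2 held 8 sites with a 2 h ratio of 0.814, so the lower value of that band came from sites with fewer reads.

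**Figure D3:**
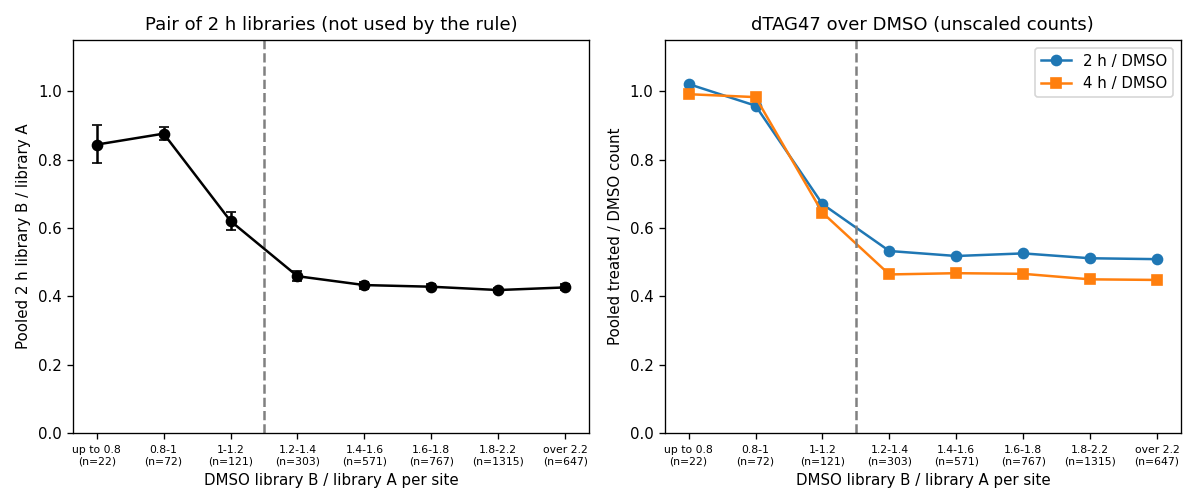
Pooled ratios in 8 bands of the DMSO library B to A ratio, for all 3818 sites with a DMSO sum of 60 or more; the dashed line marks the limit of 1.2. On the left the 2 h library B to A ratio with its 95% exact binomial interval falls from 0.844 to 0.426 between the first and the last band; on the right, unscaled 2 h and 4 h counts over DMSO counts fall from 1.02 and 0.992 to 0.509 and 0.448.

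Pooled over bands, values did differ across the limit. At 200 or more DMSO reads the 2 h library B to A ratio was 0.814 at the 8 sites with DMSO ratios over 1.0 and up to 1.2 and 0.508 at the 12 sites over 1.2 and up to 1.4, and the 4 h to DMSO ratio was 0.93 and 0.507. The sites nearest to the limit were shallow. Just inside it, chr16:82970695-82971095 had 35 and 42 reads in the controls, 32 and 12 after 2 h and 11 and 13 after 4 h. The site chr5:34609105-34609505 had 30 and 36 in the controls, 24 and 11 after 2 h and 12 and 21 after 4 h, and chr20:48222362-48222762 had 41 and 49, 37 and 16, and 24 and 25. Just outside, 3 sites had 39 and 47 reads with DMSO: chr10:30036987-30037387, chr10:89798032-89798432 and chr11:17717332-17717732. Their counts were 26 and 16, 36 and 11, and 28 and 16 at 2 h, and 12 and 8, 18 and 21, and 18 and 14 at 4 h. All 6 had lower 4 h counts than DMSO counts in every column.

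Among deep sites the 2 h ratios of the level group were mostly above those of the rest, and the ranges overlapped. At 200 or more DMSO reads the 2 h library B to A ratio ran from 0.639 to 1.11 at the 44 level sites, and 41 reached 0.7. At the 478 other sites it ran from 0.129 to 0.805, and 3 reached 0.7.

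**Figure D4:**
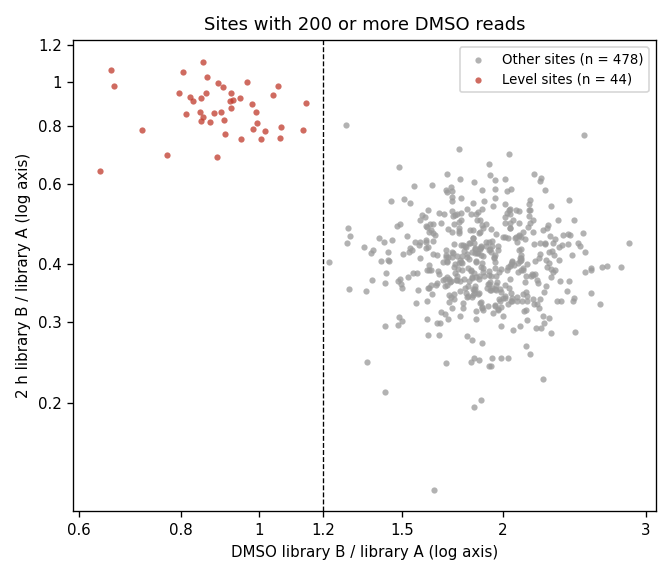
Ratio of library B to library A in the DMSO pair (horizontal, log axis) and in the 2 h pair (vertical, log axis) for the 522 sites with 200 or more DMSO reads; each point is a site and the dashed line is the limit of 1.2. The 44 level sites (red) have 2 h ratios of 0.639 to 1.11, and the 478 other sites (grey) gather around a median of 0.405.

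The highest counts of the whole table belonged to level sites. At chr1:121484990-121485390, the site with the most DMSO reads, libraries A and B gave 4842 and 4496 reads in the controls, 4740 and 4330 after 2 h and 4720 and 4715 after 4 h. The next, chr7:61968821-61969221, gave 2639 and 2368 in the controls, 2671 and 2297 after 2 h and 2413 and 2540 after 4 h. A site at chr6:58778181-58778581 gave 1637 and 1394 in the controls, 1580 and 1322 after 2 h and 1508 and 1537 after 4 h. In all 3 the 4 h columns lay between the DMSO libraries and the 2 h library B lay lowest. The raw log2 change at 4 h was 0.01 (SE 0.05), −0.02 (SE 0.08) and 0.01 (SE 0.13), given as a description because the rule used the DMSO counts.

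The other 7 of the 10 deepest sites also stayed near their control counts, with small differences between them. Reads at chr9:66971000-66971400 were 1048 and 1014 in the controls, 1006 and 1006 after 2 h and 1029 and 988 after 4 h. Those at chr2:92269319-92269719 were 825 and 735, 754 and 748, and 721 and 784, in the same order. Counts of 802 and 726, 800 and 662, and 774 and 739 were found at chr18:18518819-18519219. Of these sites, 2 had a 4 h column below both DMSO libraries, and in none did a treated column lie above both. The site chr21:9827046-9827446 was the only one of the 10 with more reads in DMSO library B, with 656 and 699 in the controls, 636 and 508 after 2 h and 578 and 626 after 4 h, where both treated pairs lay below both DMSO libraries. At chr20:26189912-26190312 the counts were 606 and 514, 526 and 484, and 530 and 574. The site chr11:51579394-51579794 had 469 and 426 in the controls, 514 and 395 after 2 h and 499 and 512 after 4 h, and there the 4 h columns lay above both DMSO libraries. The last of the 10, chr2:133034344-133034744, had 472 and 400, 475 and 390, and 479 and 431. Across the 10 sites the 4 h to DMSO ratio ran from 0.889 to 1.13.

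**Figure D5:**
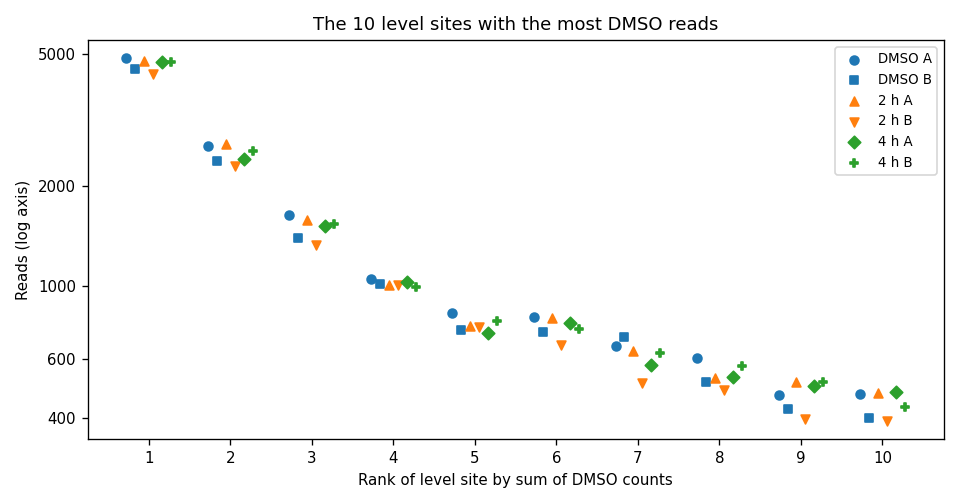
Reads (log axis) in each of the 6 libraries at the 10 level sites with the highest DMSO sums, ordered by that sum; colours mark DMSO, 2 h and 4 h, and symbols the library. All 6 values lie close together at each site, for example between 4330 and 4842 at the first and between 390 and 479 at the last.

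The 3 level sites with the lowest DMSO ratio had clearly fewer reads in DMSO library B than in A. At chr1:142538557-142538957 there were 78 and 44 reads in the controls, 64 and 59 after 2 h and 58 and 50 after 4 h. The site chr18:18517060-18517460 had 162 and 103, 166 and 106, and 139 and 117. At chr10:42391504-42391904 the counts were 86 and 56, 87 and 69, and 70 and 60. In each, both 4 h values lay between the controls.

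Level sites with the largest and smallest 4 h to DMSO ratios were picked by that outcome and show only the range. The highest was chrX:125606513-125606913, with 32 and 36 reads in the controls, 79 and 41 after 2 h and 73 and 54 after 4 h, all treated values above both DMSO values. It had a ratio of 1.87 and a 2 h library B to A ratio of 0.519. Next came chr16:33950876-33951276 with 67 and 64, 88 and 79, and 98 and 89 reads, and chr8:46941157-46941557 with 31 and 35, 33 and 35, and 47 and 43. They were followed by chr2:92305558-92305958 with 56 and 39, 58 and 69, and 49 and 75, and chr10:42400280-42400680 with 79 and 78, 86 and 74, and 99 and 93. The 4 h columns lay above both DMSO libraries at 4 of these 5 sites and overlapped them at chr2:92305558-92305958.

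At the other end, few reads were left at 4 h. At chr13:78839415-78839815 there were 32 and 36 reads in the controls, 9 and 5 after 2 h and 5 and 2 after 4 h (log2 change in raw counts after 4 h −3.23, SE 0.72). The site chr1:108588420-108588820 had 37 and 40, 16 and 12, and 3 and 7, and chr3:99409111-99409511 had 66 and 72, 20 and 15, and 7 and 14. Counts at chr11:8481425-8481825 were 34 and 38, 28 and 9, and 5 and 8, and at chr6:8570979-8571379 they were 37 and 44, 16 and 3, and 9 and 6. Every treated value at these 5 sites lay below both DMSO values.

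Treated and DMSO columns were next compared site by site. Of the 215 level sites, 139 had both 4 h counts under both control counts, 15 had both above, and 61 overlapped. Over all sites, 79% lay below and 1.04% above. At 2 h the numbers were 113 below, 5 above and 97 overlapping, with 49.8% below and 0.588% above over all sites. With 200 or more DMSO reads, 10 of 44 lay below and 8 above at 4 h, and with 60 to under 120, 120 of 148 lay below and 3 above. The rule took its sites by these DMSO values, which bears on how often columns separate, so nothing is read from these counts.

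The same caution holds for the fitted changes from DMSO, which came from edgeR's quasi-likelihood test over all 5575 sites that passed the filter on low counts, with adjusted p under 0.05. All 215 level sites passed, since the rule asks for more reads. Without any scaling, 8 of them fell and 0 rose at 4 h, where 6.19% of all tested sites fell, and 1 fell at 2 h, where 1.04% did. Their median raw log2 change was −0.48 at 2 h and −0.68 at 4 h, against −0.93 and −1.08 over all tested sites. None of the 44 deep level sites fell, and their medians were −0.04 and −0.01. The 8 sites that fell at 4 h had DMSO sums under 120 except chr3:99409111-99409511. Fits that left 1 library in a group are described by their median raw log2 change only. Counting the 4 h columns as 1 library gave −0.67 for the level sites after 4 h, against −1.08 over all tested sites. Dropping the 2 h library A or B gave −0.99 or −0.16 after 2 h, against −1.65 or −0.47. Without the DMSO library A the level sites had −0.49 after 2 h and −0.73 after 4 h, against −1.26 and −1.41. Without the DMSO library B they had −0.46 and −0.58, close to the −0.49 and −0.65 over all tested sites. Leaving out the 4 h column A or B gave −0.57 or −0.64 after 4 h, against −1.06 or −1.13.

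Scaled by TMM, which sets each site against the typical site and removes any common change, 45 level sites rose and 4 fell at 2 h, and 67 rose and 7 fell at 4 h. Over all tested sites, 2.49% rose and 4.07% fell at 2 h, and 4.72% rose and 6.73% fell at 4 h. The median relative log2 change of the level sites was 0.46 at 2 h and 0.42 at 4 h, against 0.01 and 0.02 over all tested sites. Among the 44 deep sites the medians were 0.97 and 0.98, with 18 and 27 rises. A relative rise here does not mean more reads: at these deep sites the raw change at 4 h was within 0.3 of 0 on the log2 scale at all 44. The rises moved with the scale, the method and the libraries kept, and why was not tested. Scaled on the 20 highest sites of the table, 15 of which were themselves level sites, 0 level sites rose at either time. There were 3 falls at 2 h and 12 at 4 h, with 146 and 599 over all tested sites. With DESeq2, 1 level site rose at 2 h and 2 at 4 h, with 14 and 21 over all tested sites. Without the DMSO library B the median relative log2 change of the level sites was 0.05 at 2 h and 0.08 at 4 h, and without the DMSO library A 0.77 and 0.70. At 2 h it was 0.28 without the 2 h library B and 0.64 without the 2 h library A. Dropping either 4 h column gave 0.47 at 4 h.

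The times were compared without the DMSO columns, so this comparison did not share counts with the rule, although all libraries shared 1 estimate of the spread. The pooled 4 h count was 1.01 times the 2 h count at the level sites and 0.884 times at the other sites. For the pooled level-site counts, 2 columns against 2, the exact permutation test (two-sided) gave p = 1.0, and this design allows no p below 0.33. Site by site, edgeR's quasi-likelihood test called 0 of the 215 in the relative fit, with 8 at an unadjusted p under 0.05, and 0 in the raw fit, with 1 at an unadjusted p under 0.05. Over all 5575 tested sites the share called was also 0% in both fits. The estimated spread (coefficient of variation) was 11.6% in the relative fit and 38.7% in the raw fit, which limits what each could call. DESeq2 gave 0 calls, with 2 and 0 level sites at an unadjusted p under 0.05. At the 44 deep sites the raw log2 change from 2 h to 4 h ran from −0.34 to 0.27.

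Level sites had another site of the table, level or not, close by more often than the other sites did. Of the 215, 87 (40.5%) had one within 10 kb, against 14.4% of the other sites and 14.3% of all sites. Among those with 200 or more DMSO reads it was 32 of 44 (72.7%), against 19.0% of the 478 other sites of that depth. The DMSO sum went along with this feature within the group: of the 148 level sites with 60 to under 120 reads, 39 (26.4%) had such a neighbour. These are counts of positions and were not tested.

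A level site within 10 kb of another level site was found 53 times, in 13 runs that covered 56 sites of the table. The run with the most level sites spanned chr2:133016253-133039297 and held 10 level sites among its 11 sites, with 2124 and 1824 reads in the controls, 2203 and 1822 after 2 h and 2073 and 2085 after 4 h. From its start, chr2:133016253-133016653 had 123 and 104 reads in the controls, 134 and 115 after 2 h and 122 and 122 after 4 h. The second, chr2:133019916-133020316, had 154 and 102, 133 and 130, and 130 and 133. Then followed chr2:133025624-133026024 with 35 and 26, 38 and 33, and 31 and 39, chr2:133026594-133026994 with 151 and 171, 203 and 159, and 193 and 156, and chr2:133029418-133029818 with 372 and 327, 351 and 300, and 323 and 354. Over the 10 level sites of this run the treated to DMSO ratio ran from 0.794 to 1.16 at 2 h and was at least 0.889 at 4 h.

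The next runs were chr10:42385022-42400680 with 8 level sites, chr2:92269319-92307033 with 7, chr16:33950876-33974363 with 6 and chr16:46386150-46403899 with 5. Their 4 h counts were 96.7%, 99.5%, 96.2% and 93.9% of their DMSO counts. Over the 13 runs the lowest value was 88.8%, at chr19:24184675-24186152, and the highest 110%, at chr11:51579394-51580762.

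Weaker sites beside the level sites, which the rule had not picked because they held fewer than 60 DMSO reads, behaved like them. There were 48 such sites within 10 kb of a level site, a comparison added after the data were seen. They held 734 and 759 reads in the controls, 749 and 604 after 2 h and 671 and 689 after 4 h. Their DMSO library B to A ratio was 1.03 and their 2 h ratio 0.806 (95% exact binomial interval 0.723 to 0.899), and the 4 h count was 91.1% of the DMSO count. At the 1916 weak sites farther away these values were 1.47, 0.494 and 53.4%. Of the weak sites farther away, 175 had some other site within 10 kb, and these gave 1.39, 0.518 and 62.2%. In contrast, 20 other sites with 60 or more DMSO reads lay within 10 kb of a level site and had a 2 h ratio of 0.464 and a 4 h count of 49.4% of DMSO, close to the 0.426 and 45.6% of the other sites farther away. Those 20 were kept out of the level group by their DMSO ratio.

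By chromosome, level sites were most numerous on chromosomes 2 (28), 16 (19), 1 (18) and 10 (16), which held 81 of the 215. Of all 5782 sites, these chromosomes held 538, 163, 514 and 263. Level sites were 215 of the 3818 sites with 60 or more DMSO reads. By chromosome this share ranged from 2.06% on chromosome 5 to 18.6% on chromosome 16, leaving aside chromosome Y. It was 7.33% on chromosome 2, 5.57% on chromosome 1 and 9.36% on chromosome 10. On chromosome 16, 5 level sites made up 33.3% of the sites with 200 or more DMSO reads. The runs named above held 6 and 5 of the 19 level sites there. On chromosome Y all 3 sites that reached 60 DMSO reads were level, out of 25 sites in the table. At chrY:10027187-10027587 the counts were 86 and 62 in the controls, 85 and 65 after 2 h and 81 and 82 after 4 h. The site chrY:13460855-13461255 had 68 and 53, 48 and 53, and 54 and 57, and chrY:13482155-13482555 had 39 and 27, 34 and 36, and 34 and 27. All 3 overlapped the DMSO counts at 4 h.

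Some level sites lay near the edges of long stretches in which the table has no site. Within 1 Mb of an edge of the longest site-free stretch of their chromosome were 27 level sites (12.6%). This held for 1.69% of the other sites and 3.06% of all sites. Among the level sites with 200 or more DMSO reads 8 of 44 lay this close, against 1.46% of the 478 other sites of that depth. The 27 include the chromosome 16 runs of 6 and 5 level sites and the chromosome 19 runs of 2 each. They are therefore not 27 separate positions. The deepest, chr1:121484990-121485390, was the last site before such a stretch, and chr1:142538557-142538957 the first after it. What lies in these stretches was not analysed here.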

How the data were processed

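The authors deposited 1 table of raw read counts per site for the 6 crosslinked libraries; 0 further value columns were present, and the sample without crosslinking was left aside, since its values were not used here. The tools, per the submitters' processing notes, included Bowtie2, Trimmomatic 0.32, DiffBind, Genrich 0.6.1, deepTools and DESeq2, with hg19; their roles, the choice of sites and duplicate removal were not given in the sources used here. Column names give treatment and a letter, and letters are not tied to replicate numbers. Coordinates are as deposited; the table does not say if its starts are 0-based, so they may be off by 1 base.

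Members, lists, named-site rule and most alternatives were chosen with earlier results of these data known. Named were the 10 deepest level sites, the 5 highest and 5 lowest at 4 h, 3 on each side of the limit, the 3 lowest DMSO ratios, those on chromosome Y, and 5 of the run with the most level sites; the comparison of the times called none.

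Counts were filtered (filterByExpr, minimum count 10, minimum total 15; 5575 kept, 207 removed) and tested on the whole table with edgeR 4.0.16 (R 4.3.3; 3 residual degrees of freedom, Benjamini-Hochberg), unscaled and with TMM. The standard error is the log2 change over the square root of F. Alternatives used DESeq2 1.42.0 and limma 3.58.1; intervals used scipy 1.17.1. The edgeR fits were also run on simulated counts, drawn for both fits with the spread of the relative fit (coefficient of variation 11.6%). The raw fit's own spread was 38.7%, so that run does not show what changes the raw fit could call here.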

Additional observations from a re-analysis of the deposited data

How the results depend on the processing

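The 4 h against 2 h counts of called level sites were 0 under all 14 relative and 12 raw alternatives, and the pooled 4 h over 2 h ratio stayed within the spread between libraries under all 14. Other results moved with the choices. The 2 h library B over A ratio (0.824) became 0.874, 0.859 and 0.778 with DMSO ratio limits of 1.0 (94 sites), 1.1 (130) and 1.3 (340), and 0.864, 0.879 and 0.764 with DMSO sums of at least 100 (83 sites), 200 (44) and 30 (618). It was 0.737 without the 20 sites of highest mean count, 0.667 as the median site and 1.70 with counts divided by library totals. Under the same settings and in the same order the 4 h over DMSO ratio (0.905) was 0.984, 0.961, 0.830, 0.974, 0.997, 0.816, 0.789, 0.625 and 1.65. The 2 h over DMSO ratio (0.895) moved beyond the spread to 0.714 as the median site and 1.63 on totals. Leaving out 1 library gave 0.809 to 0.982 for 2 h over DMSO, 0.875 to 0.937 for 4 h over DMSO and 0.922 to 1.12 for 4 h over 2 h.

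Relative calls at 2 h numbered 49 (45 rises, 4 falls), with 366 over all 5575 tested sites. DESeq2 gave 1 rise, with 24 calls over all tested sites. Scaled on the 20 highest sites there were 3 falls, with 146 calls over all tested sites. At 4 h there were 74 (67 rises, 7 falls), against 2 rises with DESeq2, 13 calls (12 rises, 1 fall) with the 4 h columns as 1 library and 12 falls scaled on the 20 highest sites. Which sites were shared was not counted. Leaving out 1 library gave 3 to 89 at 2 h and 11 to 98 at 4 h. The 1 raw call at 2 h became 0 in a fit of the compared groups alone, with DESeq2 or with 1 combined 4 h library, and 5 with limma-voom; the 8 at 4 h were 24 in a fit of the compared groups alone and 0 where the 4 h columns counted as 1 library. Leaving out 1 library gave 0 to 42 raw calls at 2 h and 0 to 25 at 4 h. Why these counts moved was not tested. Taking the letter as a replicate block gave 12 relative calls at 2 h and 35 at 4 h, with 173 and 433 over all tested sites. Raw calls at the level sites were 0 at both times, with 0 and 1 over all tested sites. The A-to-B difference correlated between DMSO and 2 h at −0.195, between DMSO and 4 h at 0.0332 and between 2 h and 4 h at 0.00223. Whether the letters mark pairs was not tested. Depth limits single sites: the median level site held 40 and 42 reads with DMSO and 19 in the 2 h library B.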
